A study of Mus musculus with 12 samples.

Results

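The 6 small intestine libraries of mice that had received melphalan together with human umbilical cord mesenchymal stem cells were set, as a single pooled class, against the 3 libraries of mice that had received melphalan alone. These 9 libraries were chosen by their labels from the 12 of the study. The cell class joins 3 libraries named Mel+MSC (labelled melphalan plus mesenchymal stem cell) with 3 named MSC+Mel (the same agents in the opposite order). The 3 remaining libraries are Control, labelled as wild type with no agent. Melphalan, a nitrogen mustard used in chemotherapy, alkylates DNA and crosslinks its strands. The labels give no dose, time, strain, age, route of cell delivery or meaning for the order of the names, and no group received the stem cells without melphalan. They do not say that libraries came from separate animals, so the p-values rest only on how far these libraries scatter, and that scatter may be technical. The comparison asks which genes moved from their level under melphalan in the same direction, and by a similar amount, in both cell groups.

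The lining of the small intestine is renewed from stem cells at the base of the crypts. Their daughters divide rapidly in the crypt and then mature into absorptive and secretory cells as they move onto the villus. Unrepaired crosslinks stall replication and activate the transcription factor p53, which switches on genes for cell cycle arrest and cell death. Dividing crypt cells are therefore the usual first site of injury by drugs of this class.

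The measured quantity was the FPKM value of a gene, a level per length of transcript scaled to its library. Of 55484 genes, 12847 reached 1 FPKM in at least 3 of the 12 libraries and were tested as log2(FPKM + 1). All log2 changes are on this scale, where low genes appear to change less than they do. Read depth is unknown, since the files hold FPKM and not counts. Summed FPKM per library ran from 516851 to 796980, and 11529 to 12703 genes reached 1 FPKM. The mean residual variance of a gene was 0.42 in Melphalan, 0.293 in Mel+MSC, 0.176 in Control and 0.0806 in MSC+Mel, so the groups were not equally uniform. All 12 epithelial markers were detected, and Epcam, a defining epithelial adhesion protein, lay between 727 and 1300.0 FPKM in all libraries, as the tissue label requires. Melphalan 2 stood apart by its lymphoid genes. Ptprc, the pan-leukocyte antigen CD45, was 95 FPKM there and at most 12.8 in the other libraries. In pieces of tissue, fewer cells of a type and less RNA per cell cannot be told apart.

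In the pooled comparison 97 genes rose and 28 fell, which is 0.755% and 0.218% of the genes tested (limma, Benjamini-Hochberg adjusted p under 0.05), and 2542 genes had an unadjusted p under 0.05. The median change of all genes tested was -0.03 on the log2 scale. A gene was counted as moved alike when it was called, had the same sign in both groups, had a smaller change of at least 0.5 times the larger, and had all 6 cell-group libraries on 1 side of all 3 Melphalan libraries. Of the called genes, 115 met this, 92 higher (0.716% of genes tested) and 23 lower (0.179%). Over all genes tested, called or not, 707 (5.5%) had all 6 cell-group libraries above the 3 Melphalan libraries and 420 (3.27%) had all 6 below, together 8.77%. The fitted changes of the genes moved alike ran from 0.67 to 4.88 among those that rose and from -0.73 to -2.21 among those that fell. The median of the smaller change over the larger was 0.811. The change was larger in MSC+Mel for 84 of the 115 and larger in Mel+MSC for 31. For the difference between the groups, 13 of the 115 had an unadjusted p under 0.05, beside 1562 of the 12847 genes tested. Among those 13 were Clca3b, Fgfbp1, Ephb2, Kcnq1, E2f8, Hspa1b, Erdr1 and D630039A03Rik, and none of their differences passed after adjustment. Counting as moved alike therefore does not mean that the changes were equal. Set singly against the same 3 Melphalan libraries, Mel+MSC gave 14 genes higher (0.109%) and 6 lower (0.0467%), and MSC+Mel gave 105 higher (0.817%) and 54 lower (0.42%).

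The number of calls depended on single libraries and on how the spread was estimated. It was 26 without Melphalan 1, 112 without Melphalan 2 and 47 without Melphalan 3. It was 48 without Mel+MSC 2, 60 without Mel+MSC 3, and 24, 23 and 25 without MSC+Mel 1, 2 and 3. It was 66, 56 and 211 without Control 1, 2 and 3, which enter only through the shared spread, and 134 without Mel+MSC 1. With a separate variance for each group it was 14, all of them among the 125. Among those 14 were Ccnb2, Cdca3, Clca3b, Far2, Fgfbp1, Gsdmc4, L1cam, Melk, Myb, Olfm4, Phlda3, Plp2 and Slc1a1. These 14 also kept their call in all 12 fits that left out 1 library and in the 11 other alternatives, and 18 genes kept it in all 12 left-out fits. The filter on low values was not applied anew in the left-out fits. Of the 125, Gdf15, Mgmt and Zfp385a passed it only through the 3 Melphalan libraries, and another 6, the gasdermins Gsdmc2, Gsdmc3 and Gsdmc4 among them, reached 1 FPKM in no Melphalan library.

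**Figure D1:**
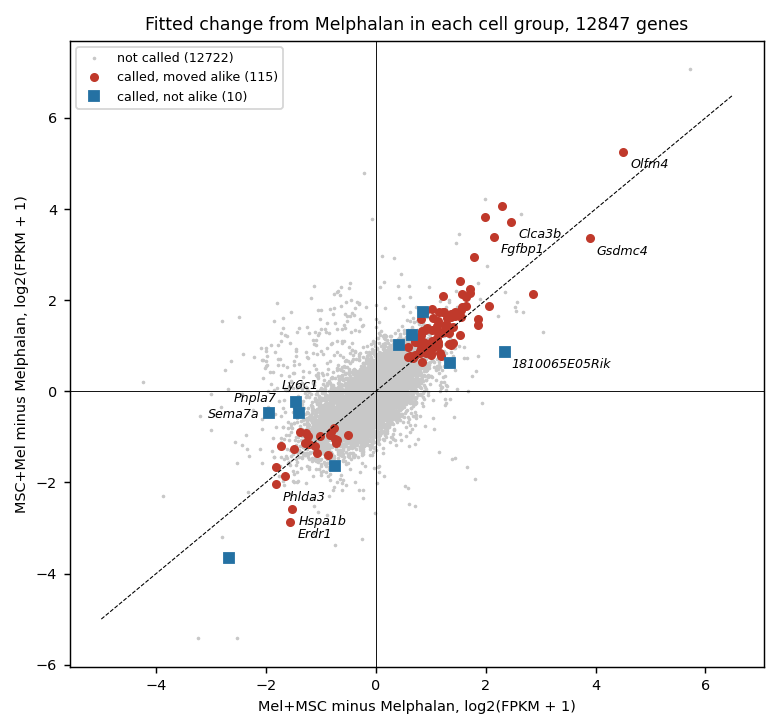
Fitted log2 change from Melphalan in Mel+MSC (horizontal axis) and MSC+Mel (vertical axis) for 12847 genes; red points are the 115 genes moved alike, blue squares the 10 called but not alike, grey points genes not called, and the dashed line marks equal change. Both axes use the same 3 Melphalan libraries, so the slope of the cloud is not itself a result; most red points above 0 lie over the line, where the MSC+Mel change is larger.

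Olfm4 of the crypt stem cell list had the largest rise among the genes moved alike. It encodes olfactomedin 4, a secreted glycoprotein that marks crypt base stem cells in human intestine and the crypt in mouse, and lies on chromosome 14 from 79984081 to 80023139 on the plus strand (GRCm38). It stood at 7.16, 2.37 and 7.99 FPKM in Melphalan 1, 2 and 3, at 139, 87.6 and 232 in Mel+MSC 1, 2 and 3, and at 199, 269 and 257 in MSC+Mel 1, 2 and 3. Every cell-group library was more than 10 times the highest Melphalan library, and Control libraries held 399, 361 and 79.5. The mean was 33.7-fold higher in the 6 libraries (197 ± 71.2, SD, n = 6) than in Melphalan (5.84 ± 3.03, SD, n = 3), a log2 change of 4.88 ± 0.51 (SE, adjusted p = 0.00526). The change was 4.50 in Mel+MSC and 5.26 in MSC+Mel, and their difference had a 95% interval from -0.54 to 2.06.

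Clca3b, a member of the calcium-activated chloride channel regulator family, stood at 7.0, 4.84 and 11.3 FPKM in the Melphalan libraries, at 37.5, 36.7 and 65.2 in Mel+MSC and at 101, 114 and 110 in MSC+Mel. The groups did not overlap, and all MSC+Mel libraries were above all Mel+MSC libraries. Its pooled log2 change was 3.09 ± 0.37 (SE, adjusted p = 0.00646), with 2.46 in Mel+MSC and 3.72 in MSC+Mel. The difference between these changes had an interval from 0.31 to 2.20 and did not pass after adjustment (limma, adjusted p = 0.331). Myb, a transcription factor that crypt progenitors need to proliferate, was 2.38, 2.46 and 2.72 FPKM in Melphalan, 10.1, 8.18 and 14.2 in Mel+MSC and 15.2, 13.7 and 15.3 in MSC+Mel. The 3 Melphalan values were nearly equal, and the lowest cell-group library was about 3 times the highest of them. The mean of Myb was 5.06-fold higher, a log2 change of 1.94 ± 0.24 (SE, adjusted p = 0.00646).

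Ephb2, a receptor tyrosine kinase that positions cells along the crypt, was the remaining called member of the 22 tested on the stem cell list. It was 1.18 to 1.76 FPKM in Melphalan, 2.83, 3.09 and 6.22 in Mel+MSC and 6.17, 8.89 and 7.28 in MSC+Mel (log2 change 1.41 ± 0.26, adjusted p = 0.0432). Its call was lost in 9 of the 12 left-out fits, Melphalan 1, 2 and 3 among them. The receptor Ephb4, chosen after its values were seen, rose by 1.48 ± 0.26 (adjusted p = 0.0299) and kept its call in 5 of 12 left-out fits. Of the 22, 4 rose, 0 fell and 18 did not pass, beside 0.755% higher among all genes tested, and the list had a median change of 0.44, beside -0.03 for all genes. Lgr5, a defining marker of crypt base stem cells, was too low to test, at 0.00991 to 1.13 FPKM over the 12 libraries. Axin2 (-0.12) and Ascl2 (0.48), a Wnt target and a stem cell transcription factor chosen after their values were seen, did not pass. The list mean of log2(FPKM + 1) was 2.16 to 2.53 in Melphalan and 2.84 to 3.45 in the 6 cell-group libraries.

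**Figure D2:**
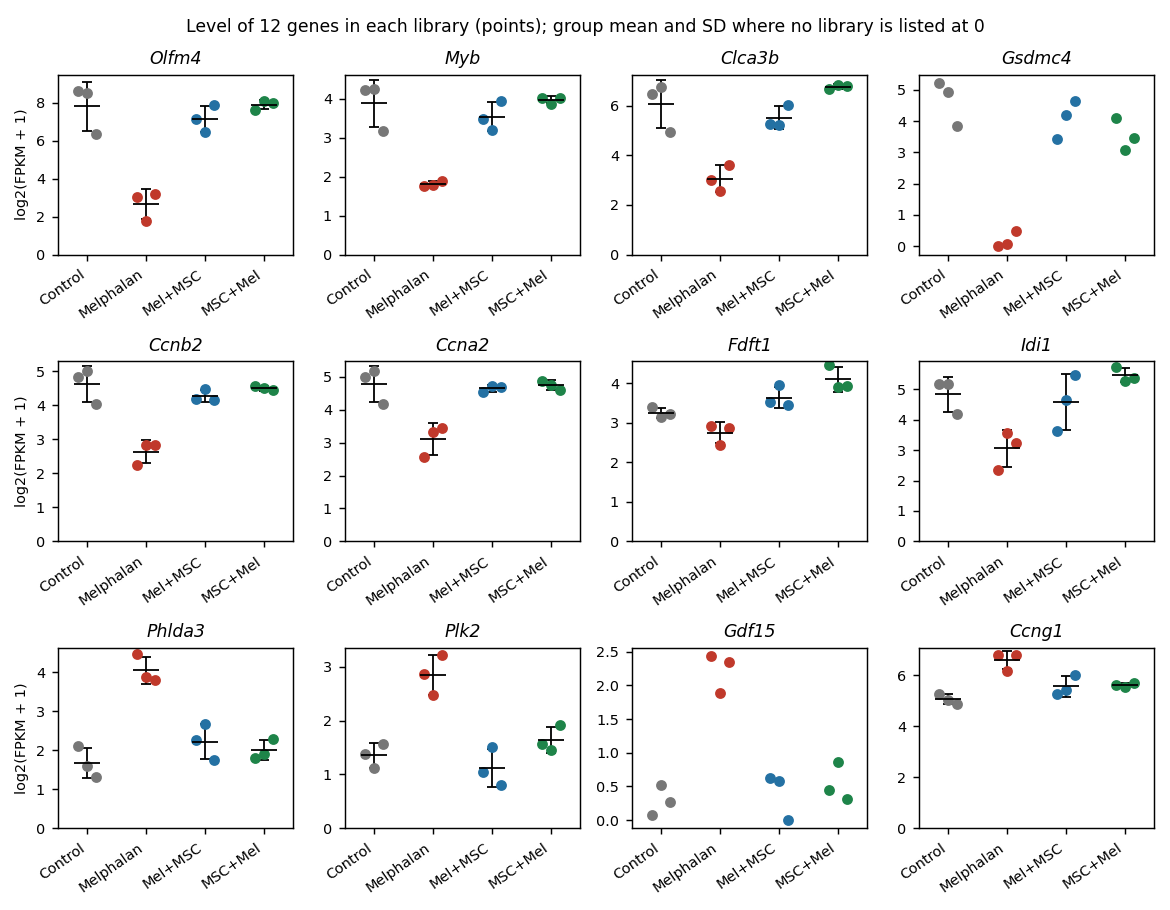
Level of 12 genes in each library as log2(FPKM + 1), 1 point per library, with group mean and SD bars except for Gsdmc4 and Gdf15, which are listed at 0 in a library. All 12 are genes moved alike. By that choice the Mel+MSC and MSC+Mel points lie on the same side of the Melphalan points without overlap. They lie above for Olfm4 to Idi1 and below for Phlda3, Plk2, Gdf15 and Ccng1.

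The gasdermin C genes rose from values at or near 0. They encode proteins of the pore-forming gasdermin family, lie side by side on the minus strand of chromosome 15 and are near-identical copies, so the split of reads among them is uncertain. Gsdmc4 (63891264 to 63912297, GRCm38) was listed at 0, 0.0480 and 0.406 FPKM in Melphalan 1, 2 and 3, at 9.70, 17.3 and 23.7 in Mel+MSC and at 15.9, 7.49 and 9.98 in MSC+Mel. Gsdmc2 was listed at 0, 0.209 and 0.129 in Melphalan, at 5.48, 7.66 and 8.40 in Mel+MSC and at 7.34, 1.97 and 3.73 in MSC+Mel. Gsdmc3 was listed at 0 in all 3 Melphalan libraries and at 0.747 to 1.95 in the 6 others. All 3 tested members of the 4 listed were thus called (adjusted p = 0.00475, 0.00646 and 0.0211), beside 0.755% higher among all genes tested. None of their Melphalan libraries reached any cell-group library, beside 5.5% of all genes with all 6 above. These 3 genes reached 1 FPKM in no Melphalan library and passed the filter through the cell groups and Control. In Control, Gsdmc4 was 36.3, 29.2 and 13.4 FPKM.

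Fgfbp1, a secreted carrier that releases fibroblast growth factors from the matrix, was 0.945, 0.278 and 0.617 FPKM in Melphalan, 3.60, 11.5 and 5.07 in Mel+MSC and 16.9, 15.1 and 15.2 in MSC+Mel. Every MSC+Mel library was above every Mel+MSC library, and all were above Melphalan (log2 change 2.77 ± 0.34, adjusted p = 0.00646). The change was 2.15 in Mel+MSC and 3.39 in MSC+Mel. Their difference had an interval from 0.38 to 2.12 and did not pass after adjustment (limma, adjusted p = 0.300). Slc1a1, the epithelial glutamate and aspartate carrier, was 2.91, 2.80 and 4.24 FPKM in Melphalan, 13.0, 17.4 and 20.9 in Mel+MSC and 18.8, 13.2 and 12.5 in MSC+Mel. The cell groups overlapped each other and not Melphalan, with a change of 2.06 in Mel+MSC and 1.87 in MSC+Mel (pooled 1.96 ± 0.22, adjusted p = 0.00526). It was the only called gene of 15 amino acid carriers tested, whose median change was -0.10.

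Kcne3 encodes the accessory subunit that keeps the basolateral potassium channel of Kcnq1 open during chloride secretion. Kcne3 rose from 8.12 ± 4.95 (SD, n = 3) to 32.1 ± 9.26 FPKM (SD, n = 6), a log2 change of 1.98 ± 0.33 (adjusted p = 0.0283), a call lost without Melphalan 1, Mel+MSC 2 or any MSC+Mel library. Kcnq1, chosen after its values were seen, rose from 2.96 ± 0.965 to 11.9 ± 4.29 FPKM (1.65 ± 0.28, adjusted p = 0.0283). The Kcnq1 call was lost without Melphalan 1 or 2, Mel+MSC 2 or any MSC+Mel library. Tspan1, a tetraspanin membrane protein, changed by 2.37 ± 0.47 (adjusted p = 0.0454) and kept its call in 2 of the 12 left-out fits. Fads2, the delta-6 fatty acid desaturase, rose from 5.98 ± 1.29 to 24.7 ± 6.04 FPKM (1.86 ± 0.28, adjusted p = 0.0179). Its call was kept in 7 of 12 left-out fits. Gcg, the proglucagon gene of enteroendocrine L cells, rose from 3.64 ± 1.99 to 12.9 ± 3.70 FPKM (1.65 ± 0.33, adjusted p = 0.0472), with 2 calls kept in 12 left-out fits. It was the only called gene of 14 enteroendocrine genes tested.

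The next genes that rose were chosen after their values were seen. L1cam, a cell adhesion molecule, was 2.39, 1.92 and 2.48 FPKM in Melphalan, 5.79, 7.08 and 7.48 in Mel+MSC and 7.79, 8.18 and 7.71 in MSC+Mel. Plp2, a membrane protein of the proteolipid family, was 21.8, 17.0 and 24.0 in Melphalan and 55.1 to 87.8 in the 6 cell-group libraries. Far2, a fatty acyl-CoA reductase, rose by 1.49 ± 0.20 (adjusted p = 0.00808) and Prelid2 by 1.67 ± 0.23 (adjusted p = 0.00952). These and Cluh, which binds messenger RNAs of mitochondrial proteins (1.38 ± 0.19, adjusted p = 0.0109), kept their calls in all 12 left-out fits. Tfrc, the transferrin receptor that takes up iron, rose from 16.5 ± 6.38 to 40.4 ± 5.39 FPKM (1.30 ± 0.24, adjusted p = 0.0398). Nr5a2, a nuclear receptor of crypt epithelium, rose by 1.10 ± 0.21 (adjusted p = 0.0438). Tfrc kept its call in 4 and Nr5a2 in 3 of the 12 left-out fits. Capn13, a calpain protease, was 1.03 to 1.94 in Melphalan and 3.81 to 6.51 in the cell groups (1.38 ± 0.19, adjusted p = 0.0103), a call lost without Melphalan 1.

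Genes of the mitotic phases of the cell cycle formed the largest listed class among the genes that rose. Of 32 tested genes of the G2 and M phases, 7 rose, 0 fell and 25 did not pass, beside 0.755% higher among all genes tested. The list's median change was 1.16, with 1.05 in Mel+MSC and 1.34 in MSC+Mel, beside -0.03 for all genes. In 23 of the 32 all 6 cell-group libraries were above all 3 Melphalan libraries, beside 5.5% of all genes. The list mean of log2(FPKM + 1) was 1.90 to 2.61 in Melphalan, 3.13 to 3.51 in Mel+MSC, 3.53 to 3.62 in MSC+Mel and 2.94 to 3.91 in Control. The called members were Ccnb2, Ccna2, Nusap1, Cdc20, Prc1, Kif23 and Racgap1, the last 4 being outside the rule for named genes and chosen after their values were seen.

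Promoters of such genes are known for CCAAT boxes bound by NF-Y and, close to the start site, for the CHR element TTTGAA, through which the DREAM complex holds them silent outside the cell cycle. The stretches below run from 130 bases before to 30 bases after the start site given by RefSeq (GRCm38.p6) and are shown because all 5 genes were called and hold both elements there. Capitals mark CCAAT or its reverse complement ATTGG, and TTTGAA. Their places, in that order, are chr9:70421525-70421684 (minus strand), chr4:118437314-118437473 (minus), chr7:80294321-80294480 (plus), chr15:99651627-99651786 (minus) and chr9:61946770-61946929 (minus).
Ccnb2: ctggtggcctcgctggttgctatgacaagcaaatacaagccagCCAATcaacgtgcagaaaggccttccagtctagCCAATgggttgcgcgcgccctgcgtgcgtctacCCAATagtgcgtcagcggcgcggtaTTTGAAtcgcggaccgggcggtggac
Cdc20: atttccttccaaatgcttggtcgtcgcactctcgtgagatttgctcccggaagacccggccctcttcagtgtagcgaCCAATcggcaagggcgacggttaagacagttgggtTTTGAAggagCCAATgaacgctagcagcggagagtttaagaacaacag
Prc1: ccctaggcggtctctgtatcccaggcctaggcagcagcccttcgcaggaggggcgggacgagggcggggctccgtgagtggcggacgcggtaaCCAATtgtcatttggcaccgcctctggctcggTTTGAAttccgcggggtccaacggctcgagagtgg
Racgap1: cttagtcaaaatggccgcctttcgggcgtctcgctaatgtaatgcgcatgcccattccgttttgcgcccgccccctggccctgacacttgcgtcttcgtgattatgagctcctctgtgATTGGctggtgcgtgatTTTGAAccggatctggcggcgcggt
Kif23: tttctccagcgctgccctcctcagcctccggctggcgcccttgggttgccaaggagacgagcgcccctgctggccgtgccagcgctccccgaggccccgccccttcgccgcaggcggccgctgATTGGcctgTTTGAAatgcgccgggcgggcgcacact
In Cdc20 and Prc1 the TTTGAA starts 18 and 5 bases before the start site, and in Ccnb2, Kif23 and Racgap1 it starts at base 4, 2 and 5 after it. Windows from 250 bases before to 50 after the start were held for 9645 of the genes tested, and both motifs, on either strand and allowed to share an end base, occurred in 6.12% of these. A gene counted when any of its windows held both. They occurred in 19 of 27 genes with windows on the G2 and M phase list (70.4%). They occurred in 15 of 68 of the genes moved alike and higher (22.1%) and in 2 of 19 of those lower (10.5%). A match describes these letters only and is not a measured binding site.

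Ccnb2, the cyclin B2 that activates CDK1 for entry into mitosis, was 3.79, 6.07 and 6.13 FPKM in Melphalan, 17.1, 21.4 and 16.7 in Mel+MSC and 22.7, 21.6 and 20.7 in MSC+Mel. The 6 cell-group values lay within a narrow band above every Melphalan value. The mean was 3.76-fold higher (log2 change 1.75 ± 0.22, adjusted p = 0.00646), with 1.63 in Mel+MSC and 1.86 in MSC+Mel and an interval of their difference from -0.32 to 0.78. Ccna2, the cyclin of S and G2 phase, was 4.91, 9.03 and 9.88 in Melphalan, 22.1, 25.7 and 25 in Mel+MSC and 28.7, 25.9 and 23.1 in MSC+Mel (1.59 ± 0.25, adjusted p = 0.0203). The cell groups overlapped each other and not Melphalan. The Ccna2 call was lost without Melphalan 1 or any of the MSC+Mel libraries.

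Nusap1, which bundles spindle microtubules, rose by 1.55 ± 0.25 (adjusted p = 0.0262), and Cdc20, the activator of the anaphase-promoting complex, by 1.45 ± 0.29 (adjusted p = 0.045). Of the proteins of the central spindle and cytokinesis, Racgap1 rose by 1.59 ± 0.28 (adjusted p = 0.0313), Kif23 by 1.27 ± 0.24 (adjusted p = 0.0438) and Prc1 by 1.06 ± 0.18 (adjusted p = 0.0283). Prc1 was 4.87 to 5.74 FPKM in Melphalan and 11.2 to 13.2 in all 6 cell-group libraries. Racgap1 and Kif23 are partners in the centralspindlin complex, which Prc1 accompanies at the spindle midzone. All of these lost their calls without Melphalan 1. Mki67, the proliferation marker Ki-67, was 2.07, 9.19 and 3.86 in Melphalan, 10.9, 10.5 and 14.5 in Mel+MSC and 18.8, 17.5 and 18.3 in MSC+Mel. Its groups did not overlap, but Melphalan 2 was close to Mel+MSC 2 and the adjusted p was 0.0553 (1.56 ± 0.34).

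Cdca3, a trigger of mitotic entry that was on no list, was 4.94, 6.27 and 8.06 FPKM in Melphalan, 18.7, 28.7 and 16.5 in Mel+MSC and 32.5, 33.4 and 27.7 in MSC+Mel (1.85 ± 0.24, adjusted p = 0.00646). The lowest cell-group library was at more than 2 times the highest Melphalan library. Others chosen after their values were seen were the kinases Melk (1.53 ± 0.19, adjusted p = 0.00646), Pbk (1.5 ± 0.26, adjusted p = 0.0299) and Nek2 (1.08 ± 0.20, adjusted p = 0.0432). With them rose the chromatin protein Hmgb2, from 22.0 ± 5.28 to 65.2 ± 7.0 FPKM (1.55 ± 0.26, adjusted p = 0.0283). The phosphatase Cdkn3 (1.25 ± 0.19, adjusted p = 0.0179) and the repressor E2f8 (1.32 ± 0.22, adjusted p = 0.0283) rose as well. E2f8 had a smaller change of 0.89 in Mel+MSC than in MSC+Mel, at 1.75, near the limit for counting as alike. Melk kept its call in all 12 left-out fits, Cdkn3 in 9, E2f8 in 6, Pbk and Hmgb2 in 5 each and Nek2 in 2.

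Genes of S phase and of crosslink repair held no call. Of 31 S phase and replication genes none passed, and 8 had an unadjusted p under 0.05, beside 2542 of the 12847 genes tested. The median change was 0.47, with 0.24 in Mel+MSC and 0.67 in MSC+Mel. The list mean of Melphalan 2 (3.02) lay within the range of the 6 cell-group libraries (2.87 to 3.33), unlike Melphalan 1 (2.18) and Melphalan 3 (2.49). Of 24 genes of the Fanconi pathway and crosslink repair none passed, 4 had an unadjusted p under 0.05, and the median was 0.15. Apex1, the main endonuclease of base excision repair and chosen after its values were seen, rose from 6.5 ± 3.61 to 16.1 ± 1.05 FPKM (1.29 ± 0.26, adjusted p = 0.0472). It kept its call in 2 of 12 left-out fits.

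The cholesterol pathway rose in part. Cells that lack sterol release the transcription factor SREBP2, which switches on the enzymes of cholesterol synthesis. Of 25 tested genes 5 rose, 0 fell and 20 did not pass, beside 0.755% higher among all genes tested. The median change of the list was 0.61, with 0.44 in Mel+MSC and 0.81 in MSC+Mel, beside -0.03 for all genes.

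Of the enzymes that rose, Idi1, the isopentenyl diphosphate isomerase, was 4.14, 10.8 and 8.52 FPKM in Melphalan, 11.4, 24.1 and 43.5 in Mel+MSC and 52.9, 38.0 and 40.7 in MSC+Mel (log2 change 1.97 ± 0.39, adjusted p = 0.0454). Mel+MSC 1 was barely above Melphalan 2. Fdft1, squalene synthase, rose by 1.12 ± 0.18 (adjusted p = 0.0269) and the thiolase Acat2 by 0.92 ± 0.18 (adjusted p = 0.045). Cyp51, the lanosterol demethylase, was called at 0.90 ± 0.18 (adjusted p = 0.045). It was 9.14 to 12.4 FPKM in Melphalan and 16.2 to 26.4 in the cell-group libraries. Tmem97, a sterol-responsive membrane protein outside the list, rose by 1.11 ± 0.22 (adjusted p = 0.045). Cyp51 and Tmem97 were chosen after their values were seen. Idi1, Acat2, Cyp51 and Tmem97 each kept their calls in 2 of 12 left-out fits, and Fdft1 in 6. Members that did not pass, chosen after their values were seen, include Sqle (log2 change 1.37 ± 0.34, adjusted p = 0.0784) and Hmgcs1 (0.68 ± 0.23, adjusted p = 0.16).

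The promoter of Cyp51 is shown because it was called and holds both the sterol response element ATCACCNCA and a CCAAT box, the arrangement known for SREBP2 targets. It lies at chr5:4104668-4104827 on the minus strand (GRCm38.p6, RefSeq), from 130 bases before to 30 after the start, with both motifs in capitals.
Cyp51: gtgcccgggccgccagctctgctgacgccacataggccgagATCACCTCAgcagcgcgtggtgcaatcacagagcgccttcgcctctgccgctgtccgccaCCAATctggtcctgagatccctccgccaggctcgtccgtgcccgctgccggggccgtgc
The element starts 89 bases and the CCAAT 29 bases before the start. On either strand, ATCACCNCA occurred in 0.726% of the genes tested that had windows and in 2 of 17 such genes of the cholesterol list (11.8%). CCAAT occurred in 43.1% of the genes tested and in 16 of 17 of the list (94.1%).

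Among the gene lists, the targets of p53 held the most calls that fell. Of 31 tested, 4 fell, 0 rose and 27 did not pass, beside 0.218% lower among all genes. The median change was -0.52, with -0.66 in Mel+MSC and -0.56 in MSC+Mel, and in 13 of the 31 all 6 cell-group libraries were below all Melphalan libraries, beside 3.27% of all genes. The 4 and the 13 include Gdf15, which passed the filter only through the Melphalan libraries, where it was high. Its place in these counts is therefore partly set by the filter. The list mean was 3.79 to 3.98 in Melphalan, 3.10 to 3.29 in Mel+MSC, 3.14 to 3.31 in MSC+Mel and 3.0 to 3.15 in Control, so the Melphalan libraries stood above the other 9.

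Phlda3, which blocks the membrane recruitment of AKT, was 20.9, 13.7 and 13.0 FPKM in Melphalan, 3.76, 5.33 and 2.37 in Mel+MSC and 2.49, 2.77 and 3.91 in MSC+Mel. The lowest Melphalan library was more than 2 times the highest of the others. The mean fell from 15.9 ± 4.39 (SD, n = 3) to 3.44 ± 1.13 (SD, n = 6), a log2 change of -1.93 ± 0.25 (adjusted p = 0.00646) that was -1.82 in Mel+MSC and -2.04 in MSC+Mel. Gdf15, a stress cytokine that limits food intake through a hindbrain receptor, was 4.38, 2.68 and 4.06 FPKM in Melphalan, 0.540, 0.502 and 0 in Mel+MSC and 0.369, 0.813 and 0.247 in MSC+Mel (adjusted p = 0.00646). It is listed at 0 in Mel+MSC 3, and its Control libraries were at most 0.439. Gdf15 reached 1 FPKM in the Melphalan libraries alone and was tested only through them. Its call was lost with a pseudocount of 0.1 and with 1 variance per group, and it was too low to be tested under a mean of 5 FPKM or more. Otherwise it was called in the 12 left-out fits and the other alternatives. Phlda3 kept its call in all 12 left-out fits and in the 11 other alternatives.

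Plk2, a kinase of the polo-like family, was 6.31, 4.55 and 8.25 FPKM in Melphalan, 1.07, 1.83 and 0.752 in Mel+MSC and 1.95, 1.74 and 2.76 in MSC+Mel. Its 6 lower libraries did not overlap Melphalan, and the change was -1.47 ± 0.22 (adjusted p = 0.0178), a call lost without Melphalan 1 or 3 or MSC+Mel 1 or 2. Ccng1, cyclin G1, which directs a phosphatase to MDM2, was 111, 70.8 and 109 in Melphalan, 37.2, 41.3 and 64.1 in Mel+MSC and 48.2, 45.6 and 50.2 in MSC+Mel. Mel+MSC 3 came near Melphalan 2. The change of Ccng1 was -1.0 ± 0.20 (adjusted p = 0.0476), -1.02 in Mel+MSC and -0.97 in MSC+Mel, and its call was kept in 3 of 12 left-out fits.

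The window of Ccng1 is shown because the gene was called and its promoter holds a match to the p53 response element, searched as its 20-base consensus with 1 mismatch allowed. The match, in capitals, starts 195 bases before the start site, within chr11:40755442-40755501 on the minus strand (GRCm38.p6, RefSeq).
Ccng1: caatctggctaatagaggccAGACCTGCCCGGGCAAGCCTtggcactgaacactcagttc
Such a match occurred in 7 of the genes tested that had windows (0.0726%) and in 2 of 23 such genes of the p53 list (8.7%).

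Other well-known p53 targets did not pass. Cdkn1a, the inhibitor p21, was 263, 129 and 261 FPKM in Melphalan, 121, 133 and 95.7 in Mel+MSC and 119, 97.3 and 103 in MSC+Mel. Melphalan 2 lay within the cell-group range, and the change was -0.90 ± 0.25 (adjusted p = 0.11). Mdm2, the ligase that degrades p53, was 24.1 to 25.9 in Melphalan and 14.4 to 23.4 in the cell groups (-0.52 ± 0.14, adjusted p = 0.103). The death effector Bax, chosen after its values were seen, was 49.5, 77.7 and 83.6 in Melphalan and 15.9 to 49.6 in the cell groups (-1.30 ± 0.33, adjusted p = 0.0896). Melphalan 1 was just under the highest cell-group library.

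The other genes that fell most had varied roles. Hspa1b, an inducible HSP70 chaperone, was 19.4, 13.5 and 6.72 FPKM in Melphalan, 3.71, 4.17 and 2.86 in Mel+MSC and 1.43, 1.39 and 0.857 in MSC+Mel (-2.05 ± 0.39, adjusted p = 0.0438). Control held 4.01, 10.9 and 18.9, and only Mel+MSC 2 reached into that range. Its near-identical neighbour Hspa1a, for which reads may be split differently and which was chosen after its values were seen, changed by -1.63 ± 0.38 (adjusted p = 0.0695). Hspa1b was the only call among 20 heat shock and endoplasmic reticulum stress genes, whose median was -0.26. Ltf, the iron-binding lactotransferrin, was 11.3, 3.30 and 6.73 in Melphalan and 0.466 to 2.71 in the cell groups (-1.75 ± 0.35, adjusted p = 0.0472). Hspa1b and Ltf each kept their calls in 3 of 12 left-out fits. Neutrophils also carry lactotransferrin. The 12 neutrophil markers summed to 3.69 to 5.33 FPKM in Melphalan and 0.761 to 3.83 in the cell groups, and their part in the Ltf result was not tested.

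Mmp15, a membrane-anchored metalloproteinase, was 17.6, 13.6 and 15.9 FPKM in Melphalan and 4.58 to 7.99 in the cell groups (-1.19 ± 0.23, adjusted p = 0.0442), with -1.22 in Mel+MSC and -1.16 in MSC+Mel. Cxcl16, a membrane-bound chemokine and scavenger receptor, was 22.4, 19.4 and 30.8 in Melphalan, 9.80, 11.7 and 5.14 in Mel+MSC and 11.7, 13.3 and 12 in MSC+Mel (-1.14 ± 0.23, adjusted p = 0.0476). It was the only called gene of 19 cytokine and chemokine genes of the NF-kB list, whose median was -0.53. Rgcc, a regulator of the cell cycle, fell by 1.21 on the log2 scale (SE 0.19, adjusted p = 0.021). Pcolce, an enhancer of procollagen processing, changed by -1.11 ± 0.22 (adjusted p = 0.0438) and the interferon-inducible Ifi27 by -0.94 ± 0.18 (adjusted p = 0.0432). Tle3, a Groucho-family co-repressor, was 27.3, 30.8 and 28.3 in Melphalan and 12.6 to 17.7 in the cell groups, near Control at 14 to 17.9 (-0.90 ± 0.15, adjusted p = 0.0269). Of the 12 left-out fits, Mmp15, Pcolce and Ifi27 each kept their calls in 3, Cxcl16 in 2, Tle3 in 8 and Rgcc in 10.

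Erdr1 carried the largest fitted fall among the genes moved alike, with 5.75, 9.81 and 7.58 FPKM in Melphalan, 2.60, 0.177 and 4.82 in Mel+MSC and 0.260, 0.260 and 0 in MSC+Mel (adjusted p = 0.0476). Mel+MSC 3 was close to Melphalan 1, and the gene kept its call in 2 of 12 left-out fits and in 0 of the 11 other alternatives. It lies on the X chromosome (170009659 to 170019281, GRCm38). Whether reads were split between Erdr1 and the predicted gene Gm47283 was not tested. Genes that fell and were chosen after their values were seen include Mgmt, the methyltransferase that removes alkyl groups from guanine. Mgmt was 3.19, 1.02 and 2.94 in Melphalan, 0.322, 0.532 and 0.647 in Mel+MSC and 0.271, 0.397 and 0.534 in MSC+Mel (-1.15 ± 0.23, adjusted p = 0.0476). Melphalan 2 was the lowest of its group and close to the filter limit of 1 FPKM, which no library outside Melphalan reached. The call was kept in 2 of 12 left-out fits and lost with a pseudocount of 0.1. Zfp385a, a zinc finger protein that binds p53, changed by -1.38 ± 0.25 (adjusted p = 0.038). It too was tested only through Melphalan, at 2.07, 5.40 and 2.26 FPKM there and at most 0.963 elsewhere, and kept its call in 3 of 12 left-out fits. The noncoding RNA Pvt1, itself a p53 target, changed by -1.21 ± 0.23 (adjusted p = 0.0438). Maged2 changed by -0.78 ± 0.14 (adjusted p = 0.0398) and the centriole protein Ccp110 by -0.89 ± 0.16 (adjusted p = 0.0407). Pvt1 kept its call in 2 of 12 left-out fits, and Maged2 and Ccp110 in 3 each.

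**Figure D3:**
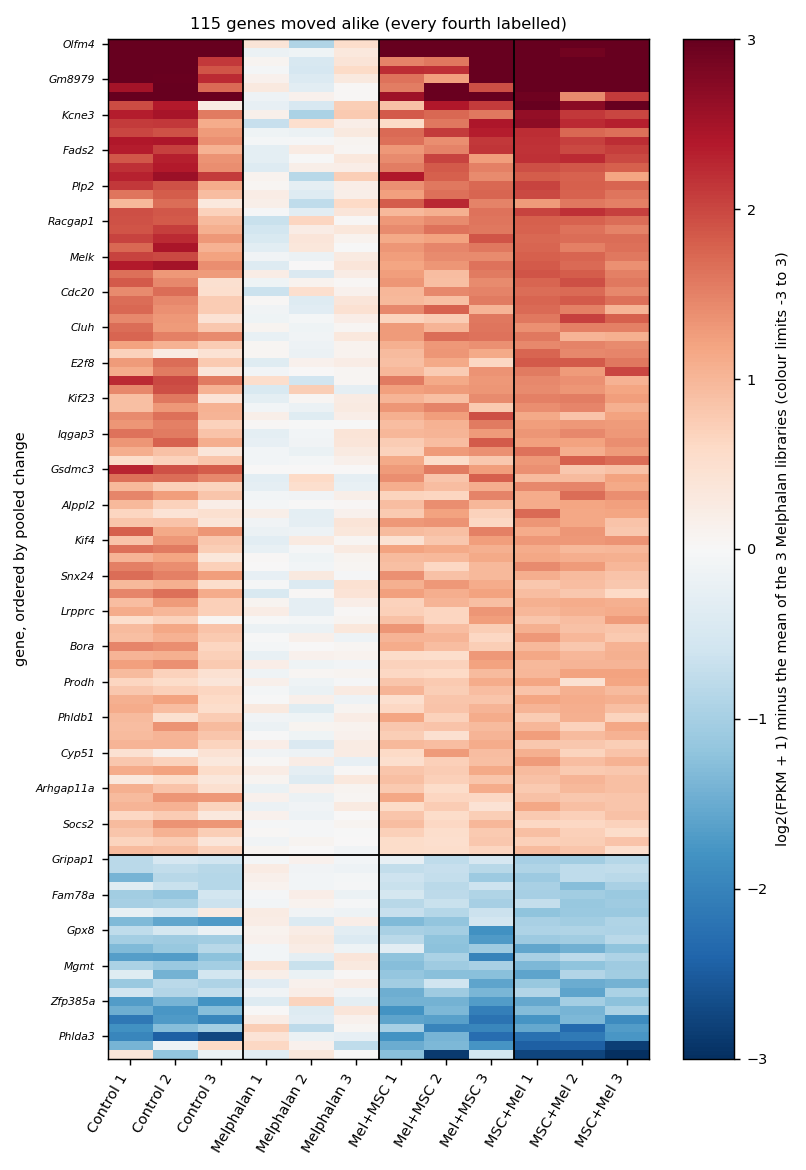
Level of the 115 genes moved alike in each of 12 libraries, as log2(FPKM + 1) minus the mean of the 3 Melphalan libraries (colour, limited to -3 and 3), ordered by pooled change from Olfm4 at 4.88 down to Erdr1 at -2.21, with a subset of genes labelled. The 6 cell-group columns are red above and blue below the horizontal line by the choice of genes; the Control columns played no part in that choice except through the spread, and all differences share the Melphalan mean.

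Of the lists for mature and secretory cells, those for brush border, Paneth, goblet and tuft cells held no call, and those for lipid absorption and enteroendocrine cells held 1 each, Acat2 and Gcg. Acat2 is the thiolase also counted on the cholesterol list, so its call there and here is the same. The brush border enzyme Alpi was 283, 252 and 539 FPKM in Melphalan and 181 to 369 in the cell groups (-0.52 ± 0.27, adjusted p = 0.304). Apoa4, the apolipoprotein of chylomicrons, was 5379 ± 2210.3 FPKM in Melphalan and 2281 ± 1147 in the cell groups (-1.30 ± 0.45, adjusted p = 0.158). Of 23 brush border genes 0 were called, with a median of -0.38, and the 25 genes of lipid absorption had a median of -0.51. The median of 34 xenobiotic metabolism genes was -0.58, with no call. Of these 34, 9 had an unadjusted p under 0.05, beside 2542 of the 12847 genes tested.

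For the Paneth cell lysozyme Lyz1 the values were 129, 149 and 104 FPKM in Melphalan and 83.6 to 256 in the cell groups, which overlapped (0.31 ± 0.33, adjusted p = 0.623). The 19 Paneth genes, several of them near-identical defensins, gave no call and a median of 0.30. Chga, of enteroendocrine cells, was 4.0 to 14.7 in Melphalan and 2.47 to 17.1 in the cell groups (0.04 ± 0.52, adjusted p = 0.976). Dclk1, of tuft cells, was 3.40 ± 1.55 in Melphalan and 1.66 ± 0.667 in the cell groups (-0.69 ± 0.25, adjusted p = 0.17). The goblet cell mucin Muc2 was 0.205 to 0.440 in Melphalan, 0.116, 0.669 and 0.631 in Mel+MSC and 4.02, 5.33 and 9.17 in MSC+Mel. Control held 3.52, 0.887 and 0.182, so all MSC+Mel libraries were above the other 9, with Control 1 close to MSC+Mel 1. Neither the pooled change (1.27 ± 0.37, adjusted p = 0.119) nor the difference between the cell groups passed (2.24, 95% interval 1.30 to 3.19, adjusted p = 0.17).

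Immune and stromal lists held 1 call between them. The medians were -1.03 for 16 B cell genes, -0.98 for 10 MHC class II genes, -0.69 for 21 T cell genes and -0.61 for 18 macrophage genes, with 0 called. Melphalan 2 had the highest sum of its group on all 4 lists. The B cell list summed to 5.07, 1480.1 and 11.5 FPKM in Melphalan 1, 2 and 3, to 5.37 to 202 in the cell groups and to 14.8 to 125 in Control. Without Melphalan 2 the change of Ptprc was 0.85 in place of -0.65. Without that library 112 genes were called in the pooled comparison, 53 of them among the 125.

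Collagen and fibroblast genes had a median of -0.63 in Mel+MSC and 0.13 in MSC+Mel, and Col1a1, the collagen I chain, was 4.47 to 11 FPKM in Melphalan and 2.70 to 12.5 in the cell groups (-0.10 ± 0.36, adjusted p = 0.893). Endothelial genes had a median of -0.83 in Mel+MSC and -0.05 in MSC+Mel. Their summed level was 52.4, 132 and 96.4 in Melphalan, 31.4, 46.6 and 35.4 in Mel+MSC and 56.1, 82.7 and 96.6 in MSC+Mel. All 3 Mel+MSC libraries were below all others on this sum, and MSC+Mel was within the Melphalan range.

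**Figure D4:**
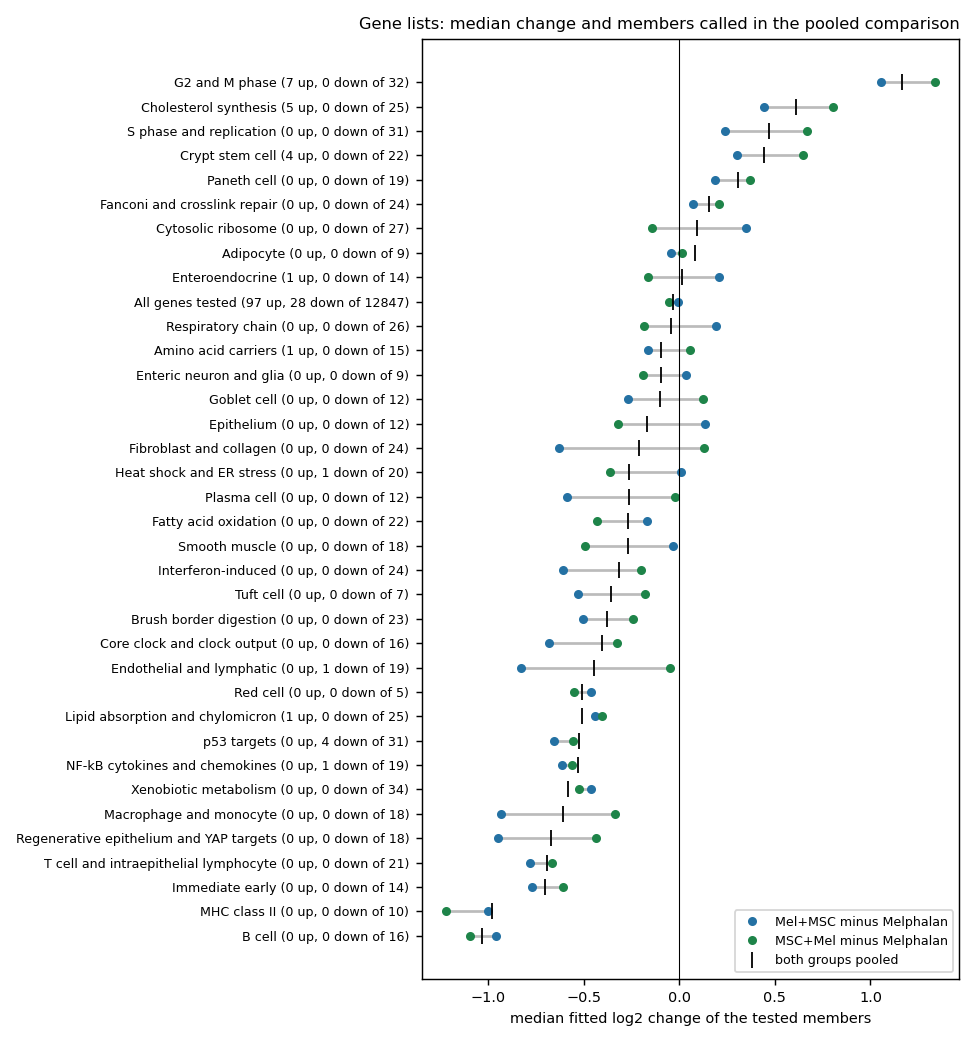
Median fitted log2 change of the tested members of each gene list against Melphalan, in Mel+MSC (blue), MSC+Mel (green) and both pooled (black tick), with the numbers called in parentheses; lists with fewer than 5 tested members are left out. G2 and M phase lies highest at 1.16 and B cell lowest at -1.03, with Melphalan 2 holding 1480.1 of the summed FPKM, and all genes tested lie at -0.03.

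Of the 125 called genes 10 were not counted as alike, 8 because the changes differed in size and 5 because libraries overlapped. The 5 with the smallest p for the difference between the groups were Ly6c1, Sema7a, Pnpla7, 1810065E05Rik and D630039A03Rik, of which the last met the rule for alike. Ly6c1, a surface antigen of monocytes and endothelium and the only call of 19 endothelial genes, was 11.4, 16.2 and 14.8 FPKM in Melphalan, 4.34, 4.90 and 4.28 in Mel+MSC and 8.94, 12.8 and 14 in MSC+Mel. It was low in Mel+MSC and overlapped Melphalan in MSC+Mel (changes of -1.45 and -0.24, difference 1.21, 95% interval 0.80 to 1.62, adjusted p = 0.17). Sema7a, a membrane semaphorin, was 13.4, 9.51 and 11 in Melphalan, 2.36, 2.91 and 1.40 in Mel+MSC and 7.65, 11.2 and 5.41 in MSC+Mel. Again MSC+Mel overlapped Melphalan (difference 1.47, 95% interval 0.86 to 2.09, adjusted p = 0.17).

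Pnpla7, a lysophospholipase, changed by -1.41 in Mel+MSC and -0.47 in MSC+Mel (difference 0.93, adjusted p = 0.191). The unnamed gene 1810065E05Rik went the other way round in size, with 3.59, 1.01 and 4.69 FPKM in Melphalan, 15.3, 23.8 and 15.9 in Mel+MSC and 7.44, 4.28 and 6.08 in MSC+Mel. Its rise was 2.34 in Mel+MSC and 0.86 in MSC+Mel (difference -1.48, adjusted p = 0.222). D630039A03Rik rose by 0.83 in Mel+MSC and by 1.59 in MSC+Mel (difference 0.77, adjusted p = 0.242). Ier5, an immediate early gene chosen after its values were seen, changed by -0.75 and -1.65 (difference -0.90, adjusted p = 0.298).

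Over all genes tested the difference between the cell groups gave 1 call (0.00778%), Tns4, with 1562 genes at an unadjusted p under 0.05. Tns4, a tensin of focal adhesions, was 2.24, 2.70 and 3.67 FPKM in Melphalan, 1.87, 2.58 and 2.27 in Mel+MSC and 10.3, 10.2 and 7.72 in MSC+Mel. Only the MSC+Mel libraries were high, by 1.68 on the log2 scale over Mel+MSC (95% interval 1.25 to 2.11, adjusted p = 0.0378). The pooled change was 0.59 ± 0.17 and did not pass (adjusted p = 0.115). Without Mel+MSC 3 the number of genes called for this difference was 398, and over all left-out fits it ran from 0 to 398, so the near absence of calls does not show that the groups act alike.

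Beside untreated intestine, the 6 cell-group libraries gave 1 gene higher (0.00778%) and 3 lower (0.0234%), with 994 at an unadjusted p under 0.05. The higher gene was the water and glycerol channel Aqp3, and the lower ones were the inflammasome gene Nlrp9b and the haemoglobin genes Hba-a1 and Hba-a2, all chosen after their values were seen. Both this comparison and that of Melphalan with Control use the Control libraries, so values are given side by side. For Olfm4 the change against Control was -5.18 in Melphalan and -0.30 in the cell groups (95% interval -1.42 to 0.83). For Myb these were -2.06 and -0.13 (-0.65 to 0.40), and for Ccnb2 -1.99 and -0.24 (-0.72 to 0.24). For Phlda3 they were 2.37 and 0.44 (-0.11 to 0.98), and for Ccng1 1.53 and 0.53 (0.08 to 0.98). Hspa1b stood at 0.32 and -1.74 (-2.60 to -0.88). Gsdmc4 stood at -4.47 and -0.85 (-1.61 to -0.09), Tfrc at -1.93 and -0.62 (-1.14 to -0.10) and Fdft1 at -0.51 and 0.61 (0.21 to 1.02). None of the genes with these intervals was called against Control. A gene whose interval spans 0 is not thereby shown to equal Control, as the intervals are about 1 to 2 log2 units wide.

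Several genes of mitochondrial translation, a list chosen after the values were seen, stood among those moved alike. Mrps22, a protein of the small mitochondrial ribosome subunit, was 8.38 to 12 FPKM in Melphalan and 17.2 to 23.6 in the cell groups (0.98 ± 0.16, adjusted p = 0.0283). Mrpl3, of the large subunit, rose by 0.92 ± 0.16 (adjusted p = 0.0313), and Lrpprc, which stabilises mitochondrial messenger RNAs, by 0.97 ± 0.18 (adjusted p = 0.0416). Mrps22 kept its call in 6, Mrpl3 in 5 and Lrpprc in 3 of 12 left-out fits. Of 78 mitochondrial ribosome genes tested 4 rose, 0 fell and 74 did not pass, beside 0.755% higher among all genes tested. Their median change was 0.06, with 0.26 in Mel+MSC and -0.14 in MSC+Mel, beside 0.09 for 27 cytosolic ribosome genes and -0.04 for 26 respiratory chain genes.

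**Figure D5:**
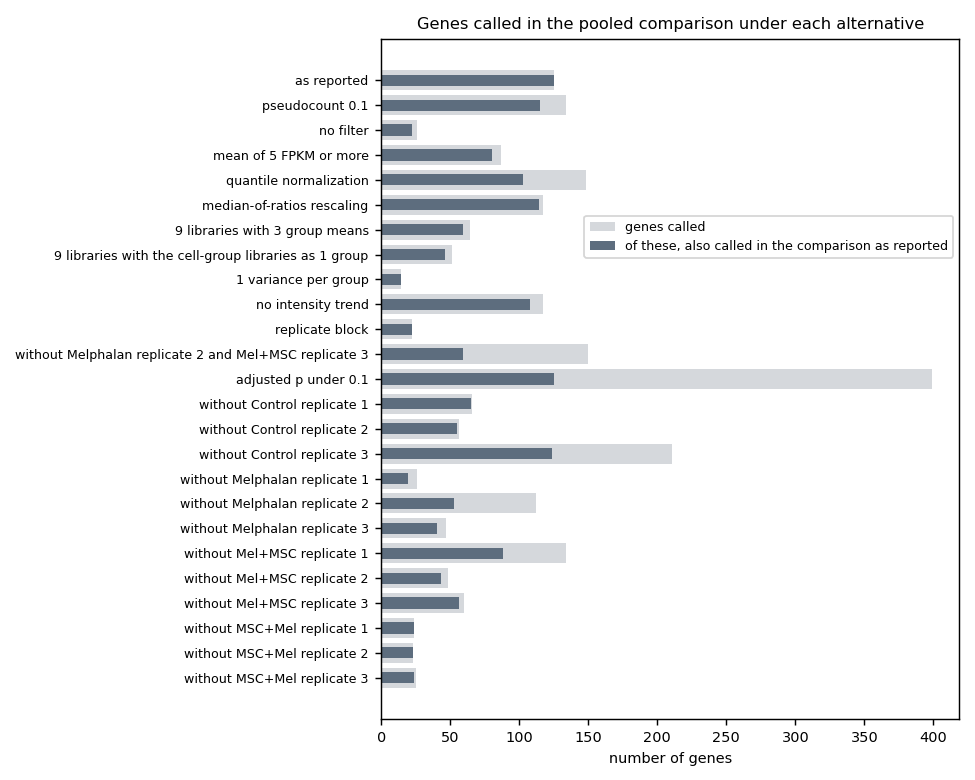
Number of genes called in the pooled comparison under each alternative (light bars, starting at 0), and how many of them are among the 125 called as reported (dark bars). The counts run from 14 with 1 variance per group to 399 at an adjusted p under 0.1, and leaving out any MSC+Mel library gives 23 to 25.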

How the data were processed

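The data are RNA sequencing libraries of mouse small intestine, deposited as 1 table of FPKM values with a column per library. Per the labels' protocols, a QIAamp AllPrep kit gave the total RNA and a TruSeq kit the libraries. Per the submitters' processing notes, the authors used STAR, Cufflinks and Cuffnorm (versions not given) and the builds mm10 and GRCm38. Annotation, strand setting and scaling between libraries are not given in the sources used here. The FPKM values deposited by the authors are estimates, not counts, so depth is unknown and precision rests on the spread between libraries. All columns matched a labelled sample (0 left unmapped).

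The filter kept genes that reached 1 FPKM in 3 or more libraries. The fit of log2(FPKM + 1) used limma (version 3.58.1, under R 4.3.3). All 12 libraries entered 1 fit with 4 group means, 8 residual degrees of freedom and an intensity trend. The contrast was the mean of both cell groups minus Melphalan. The Benjamini-Hochberg adjustment ran over 12847 genes, with calls at an adjusted p under 0.05. Scripts were tested on simulated data.

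The named genes are the 12 highest and 12 lowest changes among genes moved alike with a mean of 5 FPKM or more in the higher class, without predicted genes, receptor segments, small RNAs and pseudogenes. To these were added up to 3 called members with the smallest p in each of 38 lists, the 5 called genes that differed most between the cell groups, and fixed markers. The comparison, its members and the lists were chosen with earlier results of these data known, so list counts are descriptions. Some genes are not reported here. Coordinates are GENCODE M21 on GRCm38, which held 99.38% of the gene IDs. Promoter windows are RefSeq's (GRCm38.p6), matched by gene name.

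The labels do not say whether replicate numbers pair the libraries, and the reported fit did not pair them. Deviations of same-numbered libraries correlated between -0.369 and 0.396, over 0.1 in 7 of 18 pairs, which cannot decide it. Alternatives were another pseudocount, filter, scaling, threshold, set of libraries, variance model and likeness limit, a replicate block, and each library left out. Figures used Python 3.11.15 and matplotlib 3.10.9.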

Additional observations from a re-analysis of the deposited data

Results flagged for a closer look

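In Cxcl16, Mel+MSC 3 lay below the other 5 cell-group libraries. Its gap to the nearest of them was 0.668 of the whole range of the 6, above the 95% critical value of Dixon's test for that number. It was 5.14 FPKM there and 9.80 to 13.3 in the others. Of 50 genes examined this way 1 stood out, and chance flags about 1 in 20. In Tns4 the effects of the cell groups against Melphalan differed by 1.68 on the log2 scale by the test of the difference (limma, adjusted p = 0.0378), with -0.25 in Mel+MSC and 1.43 in MSC+Mel.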

How the results depend on the processing

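Against 125 genes called, 115 moved alike and 1 differing between the cell groups, the counts were 26, 24 and 2 with no filter, 64, 62 and 1 from the 9 libraries with 3 means, and 14, 14 and 1 with 1 variance per group. With the 9 libraries and the cell groups as 1 class the first pair was 51 and 51, and at an adjusted p under 0.1 the counts were 399, 324 and 1. Without Melphalan 2 and Mel+MSC 3 they were 150, 131 and 1117. The last count was 2 with a pseudocount of 0.1, and 0 with a mean of 5 FPKM or more or with quantile normalization. Leaving out each library in turn gave 23 to 211 called, 22 to 185 alike and 0 to 398 differing. A likeness limit of 0.75 left 75 alike. With a replicate block the counts were 22, 22 and 0, all 22 of them among the 125, and 5 of 12 libraries correlated best with their own number. Why the counts differed was not tested.

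No called gene named here changed direction under the alternatives run. Among uncalled markers, Epcam turned to 0.043 with quantile normalization. Over the left-out fits Chga ran from -0.33 without Melphalan 1 to 0.50 without Melphalan 3, and Ptprc from -1.69 without Melphalan 1 to 0.85 without Melphalan 2. Col1a1 ran from -0.33 without Melphalan 3 to 0.24 without Melphalan 2. Leaving out both Melphalan 2 and Mel+MSC 3 gave Col1a1 0.16 and Ptprc 0.81. Of calls made as reported, 77.6% were higher, beside 73.0% with quantile normalization and 75.2% with median-of-ratios rescaling. Depth is unknown, so the error of low genes such as Gdf15 and the gasdermins cannot be given.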
